A study of Mus musculus with 36 samples.

Results

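The lungs of mice given 162 µg of tube-shaped titanium dioxide nanoparticles (the labels' Tube TiO2) were set against those of mice given 18 µg of the same particles, both collected at day 1. The comparison rests on the 5 arrays labelled day 1 and 162 µg, from 4 mice, and the 4 arrays labelled day 1 and 18 µg, from 3 mice, out of 36 arrays of 29 mice in the series. Each mouse was a female C57BL/6 animal aged 5 to 7 weeks and had a single intratracheal instillation of particles in 40 µl, so both groups share the instillation and differ in the dose. Neither the vehicle nor the particle's size is given in the labels, and the RNA came from randomly chosen pieces of a whole lung. In each group 1 mouse (replicate 1) was on 2 arrays, whose values were averaged. The other groups were 54 and 0 µg at day 1 and 162, 54, 18 and 0 µg at day 28, with 3 or 4 mice each, whereas 5 animals in each group are mentioned in the labels for RNA work. Separate mice stand behind separate sample numbers, so the spread between replicates is that between animals.

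Every array carried lung RNA in the red dye Cy5 beside a reference RNA in the green dye Cy3, pooled from 11 mouse cell lines. A value below is log2(Cy5/Cy3) of 1 mouse, which compares mice for 1 gene and cannot rank genes. A change is the mean of the 162 µg mice minus the mean of the 18 µg mice on that log2 scale, and called genes are those with an adjusted p (Benjamini-Hochberg) under 0.05 in limma's moderated test, fitted over all 29 mice. The surfactant genes Sftpc and Sftpb, the club cell secretoglobin Scgb1a1 and the alveolar type I receptor Ager, which mark lung, were above background on 9 of 9 arrays of this comparison. The RNA is from whole tissue, so fewer cells of a type and less RNA per cell cannot be told apart in any value below. Between 48.6% and 62.2% of the probes were well above background per array over the series.

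1 mouse of each group carried transcripts of skeletal muscle on its array. The mean log2 Cy5 intensity over 20 muscle genes was 13.74 in replicate 3 at 162 µg and 14.22 in replicate 3 at 18 µg, and 6.969 to 7.702 on the other 7 arrays. Replicate 3 at 162 µg also stood at 11.31 over 20 genes of squamous epithelium, against 7.106 in replicate 3 at 18 µg and 6.917 to 7.41 on the other 7. Among the control mice of day 1, 4 of 4 had such a muscle array. No control value enters the change between the doses. The controls do enter the spread that limma pools over all 29 mice, and with it each SE and adjusted p. Across genes, which are not independent replicates, the 162 µg mice correlated with each other at 0.809 to 0.971 and the 18 µg mice at 0.886 to 0.98, the lowest values being those of the replicates numbered 3. Every count led with below was repeated without the muscle arrays. That fit dropped the muscle arrays of all groups, 4 of them from day 1 controls, so the spread that limma pools changed as well.

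Particles that reach the alveoli are taken up by resident macrophages, and the airway and alveolar epithelium answers instillation with acute phase proteins and chemokines that draw neutrophils and monocytes from the blood. Serum amyloid A and orosomucoid are secreted acute phase proteins best known from the liver, and the lung makes its own Saa3. Chemokines of the CC family mainly attract monocytes and lymphocytes, and CXC chemokines of the Cxcl5 kind attract neutrophils through the receptor Cxcr2. Genes of DNA replication are transcribed together when cells enter S phase, under control of E2F factors, while Dbp, Tef and Nr1d1 follow the circadian clock through E-box elements.

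At day 1, 474 of the 23255 genes tested were called between the doses, which is 2.04% of them. Of these, 391 were higher at 162 µg (1.68% of the genes tested) and 83 were lower (0.357%), and 122 differed by 2-fold or more, 99 of them higher. The median change over all genes tested was 0.0077. No mouse overlapped the other group for 465 of the 474 called genes, 384 above and 81 below, while 2910 of all tested genes (12.5%) did not overlap, 7.76% above and 4.75% below. In 4 of the 5 slides both groups were present, and 469 of the 474 genes had the same sign in each of the 4. The genes were called from these same arrays, so that count is a description. On 2 of these slides the pair of mice was the same, replicate 1 of each dose, and replicate 2 at 162 µg was on none. All values within slides given below rest on these same slides. Without the muscle arrays the count was 629. Leaving out 1 mouse changed it by over 1.5 times in 5 cases, to 187 without replicate 3 at 18 µg, 235 without replicate 2 and 255 without replicate 1 at that dose, and to 284 and 279 without replicates 1 and 4 at 162 µg. The labels of 1 mouse at 162 µg conflict, with day 1 in its titles and day 28 as its time, and it was kept in day 28. With it in the day 1 group the count was 205.

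The promoters of genes that the results turn on are given first. They are the 250 bases before the start of the gene from the RefSeq table of GRCm38.p6, written 5′ to 3′ on the gene's strand, with matches to the searched motifs in capitals. The search and all shares of promoters with a match cover these 250 bases alone. Saa3 and Saa1 had the largest changes among genes measured in both groups, and their starts lie in 1 cluster on chromosome 7. Mcm6 and Mcm5 encode subunits of the replicative helicase, and Tef is a clock-controlled gene. The E2F and E-box motifs were chosen after the values were seen. These 3 genes were then picked for display as called members of their lists that held TTTGGCGC (E2F) or CACGTG (E-box). Their matches to these motifs were thus fixed by the choice. Timp1, planned for display with Saa3 and Saa1, held no match to any searched motif and is not shown.
Saa3 promoter, chr7:46715677-46715926, minus strand: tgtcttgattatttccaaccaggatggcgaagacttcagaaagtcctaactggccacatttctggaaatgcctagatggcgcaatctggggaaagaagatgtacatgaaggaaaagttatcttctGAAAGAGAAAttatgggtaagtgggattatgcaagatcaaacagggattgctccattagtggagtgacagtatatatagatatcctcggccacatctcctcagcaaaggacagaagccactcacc
Saa1 promoter, chr7:46742981-46743230, minus strand: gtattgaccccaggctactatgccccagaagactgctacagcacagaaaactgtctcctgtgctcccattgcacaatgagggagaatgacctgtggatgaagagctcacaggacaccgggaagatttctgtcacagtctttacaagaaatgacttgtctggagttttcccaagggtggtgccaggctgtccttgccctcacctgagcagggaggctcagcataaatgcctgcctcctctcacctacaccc
Mcm6 promoter, chr1:128359706-128359955, minus strand: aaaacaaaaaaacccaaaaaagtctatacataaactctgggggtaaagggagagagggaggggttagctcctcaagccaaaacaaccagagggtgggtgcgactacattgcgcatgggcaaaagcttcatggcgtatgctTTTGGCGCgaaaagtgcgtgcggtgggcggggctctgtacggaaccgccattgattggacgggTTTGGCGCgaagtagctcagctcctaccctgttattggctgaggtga
Mcm5 promoter, chr8:75109259-75109508, plus strand: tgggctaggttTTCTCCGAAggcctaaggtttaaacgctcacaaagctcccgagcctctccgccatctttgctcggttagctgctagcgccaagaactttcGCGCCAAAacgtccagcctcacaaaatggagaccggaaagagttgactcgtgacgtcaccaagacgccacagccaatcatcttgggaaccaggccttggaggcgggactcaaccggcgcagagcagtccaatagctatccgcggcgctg
Tef promoter, chr15:81802423-81802672, plus strand: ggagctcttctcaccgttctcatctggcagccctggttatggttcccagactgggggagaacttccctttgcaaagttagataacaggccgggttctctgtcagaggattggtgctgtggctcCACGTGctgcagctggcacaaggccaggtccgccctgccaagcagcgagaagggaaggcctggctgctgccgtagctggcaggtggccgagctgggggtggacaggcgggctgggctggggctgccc

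In Saa3 the capitals mark an interferon response element, searched as GAAA, any 2 bases and GAAA, at -125 to -116 from the start. In Mcm6 they mark the E2F form TTTGGCGC at -110 to -103 and at -47 to -40. In Mcm5 they mark TTCNNNGAA, the STAT form, at -239 to -231, and TTTGGCGC read on the opposite strand at -149 to -142. In Tef they mark the E-box CACGTG at -127 to -122. Both strands were searched for 7 motifs, the others being the NF-kB form (GGGA, any 2 bases and TTCC), TTGCGCAA (C/EBP) and TTTCCCGC (a second E2F form), and the matches in the promoters shown do not overlap. The Saa1 promoter held none of the 7 in this window. Among 27025 genes with a promoter in the table, 3.46% held the interferon form, 8.13% the STAT form, 0.485% TTTGGCGC, 6.86% the E-box, 1.36% the NF-kB form, 0.185% the C/EBP form and 1.03% TTTCCCGC. A match is a description of letters and says nothing of binding.

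The acute phase genes showed the largest rises at 162 µg. Saa3 had log2 ratios of 5.55, 4.44, 3.86 and 5.28 in the 162 µg mice, against -3.08, -3.25 and -1.84 in the 18 µg mice. The lowest 162 µg mouse was far above the highest 18 µg mouse, and both of those were the replicates numbered 3, the mice with a muscle array. The change was 7.51 ± 0.61 (SE, 4 and 3 mice, limma adjusted p = 6.97e-08), a 182-fold difference. Saa1 had 4.92, 4.21, 3.72 and 4.87 at 162 µg, against -0.96, -0.55 and -0.72 at 18 µg. Its groups were as clearly apart, with a change of 5.17 ± 0.41 and an adjusted p of 5.12e-08.

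Saa2 was well above background on 5 of 5 arrays at 162 µg and on 0 of 4 at 18 µg, so it was at least 16.7-fold higher at 162 µg (adjusted p = 3.56e-10). For such a bound the low group is set to the lowest signal well above background on its arrays or to its own value, whichever is higher, and the measured fold is given where it is smaller. The probes of Saa1 and Saa2, of the orosomucoids and of the Serpina3 genes may bind near-identical transcripts, so the split between these copies is uncertain. Orm2 had 4.99, 4.15, 4.02 and 4.69 at 162 µg, against 0.18, 0.41 and 2.30 at 18 µg, a change of 3.50 (adjusted p = 0.0182). Replicate 3 stood high among the 18 µg mice for Orm2 and likewise for Orm1, which changed by 2.90 (adjusted p = 0.0147). Orm2 was above background on 3 of 4 arrays at 18 µg and Orm1 on 1 of 4, so the size of the Orm1 change rests on values mostly not above background there. Both calls were lost without replicate 1 or without replicate 2 at 18 µg, with adjusted p up to 0.112, and Orm2 also without replicate 1 or 4 at 162 µg. Without the muscle arrays the changes were 8.25 for Saa3 and 4.32 for Orm2, and both stayed called.

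In the list of acute phase genes, 12 of the 22 members tested were higher, 0 were lower and the median change was 1.03, against 0.0077 over all genes. Beyond those named, they were the protease inhibitors Serpina3m (2.10), Serpina3n (1.47) and Serpina3f (1.16), the haem carrier hemopexin Hpx (1.90), the siderophore-binding lipocalin Lcn2 (1.63), the copper carrier ceruloplasmin Cp (1.42) and the metalloreductase Steap4 (0.81). The adjusted p of these 7 ran up to 0.0401, that of Steap4. The fibrinogen chains Fga, Fgb and Fgg had changes of 0.11, 0.01 and 0.37, and haptoglobin Hp had 0.05, and none of the 4 was called. Within the 4 slides the median of the list was 0.634 to 1.40, and without the muscle arrays 13 members were called. Leaving out 1 mouse gave 8 to 13, with the lowest count without replicate 2 at 18 µg. In 2 named complement genes the direction was the same: C3, the central complement protein, had 4.22, 4.40, 4.06 and 4.30 at 162 µg and 2.34, 2.13 and 3.12 at 18 µg, a change of 1.72 (adjusted p = 0.00218). The protease Cfb of the alternative pathway changed by 1.15 (adjusted p = 0.0027), and the other 13 of 15 complement genes tested were not called.

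**Figure D1:**
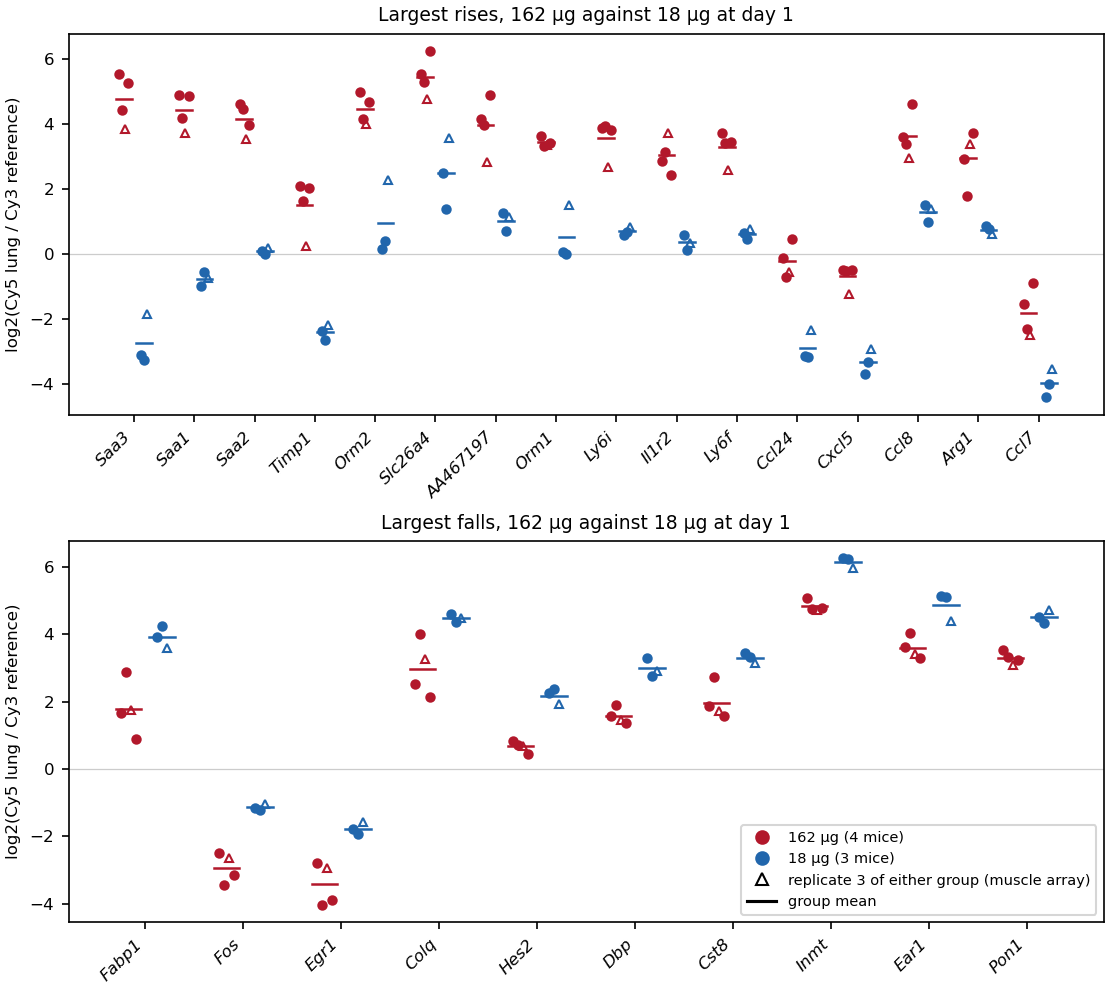
Log2 ratio of lung over reference RNA (y axis) in each mouse for the 16 largest rises and 10 largest falls by the rule for named genes, 162 µg (red, 4 mice) left of 18 µg (blue, 3 mice). Points are mice, open triangles the mice with a muscle array and bars the group means, and the groups do not overlap for any gene shown: Saa3 spans 3.86 to 5.55 at 162 µg and -3.25 to -1.84 at 18 µg.

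Several CC chemokines rose at 162 µg. Ccl7, a ligand of the monocyte receptor Ccr2, had -1.51, -2.30, -2.47 and -0.87 at 162 µg, against -4.40, -3.99 and -3.52 at 18 µg. The groups did not overlap, and the change was 2.18 (adjusted p = 0.00331). Ccl2, the main ligand of that receptor, had -2.41, -3.01, -3.34 and -1.78 at 162 µg, against -4.77, -4.71 and -4.39 at 18 µg, a change of 1.99 (adjusted p = 0.0043). Ccl8, which shares chromosome 11 with them, had 3.60, 3.40, 2.95 and 4.61 at 162 µg, against 1.52, 1.00 and 1.41 at 18 µg, a change of 2.33 (adjusted p = 0.0195). In all 3 genes replicate 4 was the highest 162 µg mouse and replicate 3 the lowest.

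In the list of CC chemokines, 8 of the 13 members tested were higher and 0 lower, with a median change of 1.54. The other called members were Ccl24, a ligand of the eosinophil receptor Ccr3 (2.65, adjusted p = 0.032), Ccl4 (1.92), Ccl17, which acts through Ccr4 on T cells (1.83, adjusted p = 0.00145), Ccl9 (1.54) and Ccl3 (1.36). Ccl17 was the only member of 15 dendritic cell and MHC class II genes to be called. Ccl12, a further ligand of Ccr2, had a change of 0.60 with overlapping groups and was not called (adjusted p = 0.402). Ccl5 and Ccl6 had changes of -0.15 and 0.23 and were not called either, and Ccl20 did not pass the filter. Without the muscle arrays 9 members were called, and with only these 2 groups in the fit 2 were. Leaving out replicate 4 at 162 µg, or replicate 2 or 3 at 18 µg, gave 5, and the calls of Ccl8 and Ccl24 were each lost without replicate 4 at 162 µg or without any 1 of the 18 µg mice, and that of Ccl24 also without replicate 1 at 162 µg. The list's median within the 4 slides was 1.28 to 2.09.

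Among attractants of neutrophils, Cxcl5 had -0.48, -0.51, -1.22 and -0.47 at 162 µg, against -3.67, -3.31 and -2.90 at 18 µg. It was above background on 5 of 5 arrays at 162 µg and 1 of 4 at 18 µg, and the change was 2.62 (adjusted p = 0.00241), its size resting at 18 µg on values mostly not above background. Cxcl3 was above background on none of the 18 µg arrays and was at least 1.73-fold higher at 162 µg (adjusted p = 0.00527). It passed the filter on signal only through the 162 µg group of day 1, so its test was not independent of a high signal there. Cxcl1, a further ligand of Cxcr2, had -2.58, -2.72, -3.27 and -3.29 at 162 µg, against -3.67, -3.67 and -3.19 at 18 µg. Those groups overlapped and Cxcl1 was not called (0.55, adjusted p = 0.222).

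Markers of the neutrophils themselves were mixed. Il1r2, a decoy receptor for interleukin 1, had 2.86, 3.16, 3.73 and 2.45 at 162 µg, against 0.61, 0.15 and 0.37 at 18 µg, a change of 2.67 (adjusted p = 0.0132). Cd177, a surface glycoprotein of neutrophils, had 2.85, 2.97, 1.48 and 3.72 at 162 µg, against 0.81, 0.62 and 0.58 at 18 µg, a change of 2.09 (adjusted p = 0.00345). Neither gene's groups overlapped. Cxcr2 (1.16) and the collagenase Mmp8 (0.96) were also called, which makes 4 of 17 markers higher, 0 lower and a median of 0.49. The granule genes Ltf (2.04) and Camp (1.45) and the calprotectin subunits S100a8 (1.00) and S100a9 (0.30) were not called. Leaving out 1 mouse gave 1 to 4 called markers, and only Cd177 kept its call without each mouse in turn. Il1r2 lost its call without replicate 2 or 3 at 18 µg, and Cxcr2 and Mmp8 lost theirs without any 1 of the 7 mice except replicate 3 at 162 µg. The summed Cy5 intensity of 18 neutrophil markers was 54054 to 105283 on the 162 µg arrays and 58482 to 73365 on the 18 µg arrays, so that sum, in which bright genes weigh most, overlapped between the doses. Their mean log2 Cy5 intensity was 9.228 to 9.809 on the 162 µg arrays and 8.473 to 9.056 on the 18 µg arrays, which did not overlap.

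Few cytokines were called. Il33, an alarmin of the epithelium, had 2.48, 2.25, 1.77 and 3.32 at 162 µg, against 1.39, 1.26 and 1.40 at 18 µg (1.11, adjusted p = 0.0315). Il1b had 3.16, 3.29, 1.97 and 2.94 at 162 µg, against 1.70, 1.32 and 1.17 at 18 µg (1.44, adjusted p = 0.0493). With Tnf (0.65, adjusted p = 0.0415) these were the 3 called of 10 cytokines tested, and Il6 was not called (0.58, adjusted p = 0.322). The groups did not overlap for the 3, yet the calls were weak: 0 of the 10 cytokines was called by limma without replicate 1 or 4 at 162 µg or without any 1 of the 18 µg mice, and 1 without replicate 2 at 162 µg. At an unadjusted p under 0.05, 4 of the 10 were higher and 1 was lower in the full fit, against 7.7% higher and 4.06% lower over all genes tested. The feedback regulator of NF-kB Tnfaip3 (0.80, adjusted p = 0.00347) and the transcription factor Cebpb (0.70, adjusted p = 0.00656) were 2 called of 16 regulators tested. That count was 1 without replicate 2 or without replicate 3 at 18 µg, 4 without the muscle arrays and 0 with median centring.

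Several genes of activated macrophages rose at 162 µg. AA467197, a small mitochondrial protein induced by inflammatory stimuli, had 4.16, 3.97, 2.83 and 4.90 at 162 µg, against 1.27, 0.71 and 1.14 at 18 µg, a change of 2.93 (adjusted p = 0.00037). Ly6i, a surface protein of the Ly6 family, had 3.88, 3.95, 2.69 and 3.84 at 162 µg, against 0.60, 0.69 and 0.83 at 18 µg, a change of 2.88 (adjusted p = 0.00026). Acod1, which makes the antimicrobial metabolite itaconate, had -1.36, -1.20, -2.28 and -0.81 at 162 µg, against -3.50, -3.52 and -3.61 at 18 µg, a change of 2.13 (adjusted p = 0.000366). In each of these, replicate 3 was the lowest 162 µg mouse and still stood above all of the 18 µg mice. In the list, 7 of 19 members were higher and 0 lower (median 0.28), among them Ly6f (2.66, a near copy of Ly6i, so their split is uncertain), the C-type lectins Clec4d (1.60) and Clec4e (1.04) and the endotoxin coreceptor Cd14 (1.06). Nos2, the inducible nitric oxide synthase, had a change of 0.30 and was not called. Arg1, the arginase of alternatively activated macrophages, had 2.92, 1.79, 3.40 and 3.72 at 162 µg, against 0.87, 0.79 and 0.62 at 18 µg (2.20, adjusted p = 0.026). It lost its call without any 1 mouse except replicate 2 at 162 µg, and it was the only called gene of 7 in its list.

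A few genes of resident alveolar macrophages fell at 162 µg. Fabp1, a fatty acid binding protein, had 1.68, 2.88, 1.75 and 0.88 at 162 µg, against 3.93, 4.24 and 3.59 at 18 µg. The groups did not overlap, and the 4.36-fold difference was the largest fall by the rule for named genes (-2.12 ± 0.42, adjusted p = 0.00554). The eosinophil-associated ribonucleases Ear1 (-1.29, adjusted p = 0.0442) and Ear2 (-1.03, adjusted p = 0.0186) were also lower, though their probes may bind each other's transcripts. These were 3 of 17 markers, 0 were higher, and the median of the list was 0.0231, a value whose sign turned under median centring (-0.0231) and with the slide as a block (-0.0206). Ear1 lost its call without any 1 mouse except replicate 2 at 162 µg, and Ear2 without replicate 2 at 162 µg or any 18 µg mouse. The widely used markers Siglecf (-0.58), Marco (0.20) and Chil3 (0.18) were not called. Of 18 genes of lipid-laden phagocytes, Lgals3 (0.87) and Cd63 (0.72) were higher, a count that was 0 to 3 without 1 mouse, and Gpnmb was not called (0.58, adjusted p = 0.427). Of 11 monocyte markers only the proteoglycan versican Vcan was called, with -1.29, -1.66, -1.60 and -1.37 at 162 µg and -2.53, -2.83 and -2.72 at 18 µg (1.21, adjusted p = 0.00407).

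Few interferon-responsive genes were called at day 1, though all 27 tested had a positive change. Cxcl10, a chemokine induced by interferons, had 1.33, 1.12, -0.37 and 2.38 at 162 µg, against -0.99, -1.05 and -1.07 at 18 µg (2.15, adjusted p = 0.00136). Rsad2, the antiviral protein viperin, had 1.02, 1.36, 1.01 and 1.32 at 162 µg, against -0.27, -0.25 and -0.10 at 18 µg (1.38, adjusted p = 0.00228). Rsad2, the nucleic acid sensor Zbp1 (1.25, adjusted p = 0.00602) and Oasl1 (0.86, adjusted p = 0.044) were the 3 called of 27 interferon-responsive genes, with a median of 0.43. These are 11.1% of the list, against 1.68% of all genes tested that were called higher. At an unadjusted p under 0.05, 11 of the 27 were higher and 0 lower, against 7.7% and 4.06% over all genes tested. Irf7, a master regulator of the response, was not called (0.76, adjusted p = 0.31) and its groups overlapped. Oasl1 lost its call with the slide as a block (adjusted p = 0.0709) and without replicate 1 or 4 at 162 µg or any 18 µg mouse. The count moved with single mice: it was 8 without replicate 3 at 162 µg, 5 without the muscle arrays and 1 without replicate 3 at 18 µg. The list's median within slides was -0.349 to 1.39, the lowest being the slide that held replicate 3 at 162 µg. Of the 21 members with a promoter in the table, 12 (57.1%) held the interferon form, against 3.46% of all genes, and Rsad2 was the 1 called member among them.

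Matrix and protease genes were led by Timp1, an inhibitor of matrix metalloproteinases. Timp1 had 2.10, 1.63, 0.26 and 2.04 at 162 µg, against -2.36, -2.63 and -2.17 at 18 µg. Replicate 3, with the muscle array, was low among the 162 µg mice and still far above the 18 µg mice, and the change was 3.89 (adjusted p = 8.24e-07), or 14.9-fold. Mmp3, the metalloproteinase stromelysin, had 1.76, 0.84, 0.06 and 1.60 at 162 µg, against -0.61, -1.14 and -1.26 at 18 µg (2.07, adjusted p = 0.000673). The aggrecanase Adamts4 was above background on 0 of 4 arrays at 18 µg and was at least 1.76-fold higher at 162 µg. Like Cxcl3, it passed the filter on signal only through the 162 µg group of day 1. In all, 8 of 27 members were higher, 0 lower and the median was 0.39, and the others called were Mmp8, the collagens Col3a1 (0.94) and Col5a1 (0.66), the crosslinking enzyme Lox (0.72) and fibrillin Fbn1 (0.54). Col1a1 (0.79) and fibronectin Fn1 (0.88) were not called. Leaving out replicate 1 or 4 at 162 µg, or replicate 1 or 3 at 18 µg, gave 5.

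Genes of DNA replication were the list with the largest share of called members. Rrm2, a subunit of ribonucleotide reductase, had -2.42, -2.51, -2.67 and -2.42 at 162 µg, against -3.62, -3.65 and -3.92 at 18 µg. The 162 µg mice lay close together and above all of the 18 µg mice, with a change of 1.23 ± 0.18 (adjusted p = 0.00037). Mcm5 had -1.30, -1.34, -1.72 and -1.37 at 162 µg, against -2.16, -2.21 and -2.55 at 18 µg (0.87, adjusted p = 0.00089). Uhrf1, which couples DNA methylation to replication, had -1.84, -2.18, -2.17 and -1.76 at 162 µg, against -3.78, -3.31 and -3.80 at 18 µg (1.64, adjusted p = 0.00102). Of 24 S phase genes tested, 21 were higher, 0 lower and the median was 0.82, with changes of the called genes of up to 1.64 (Uhrf1). All 6 helicase subunits Mcm2 to Mcm7 were among them, at 0.76 to 1.07, as were the helicase loader Cdt1 (0.90), the sliding clamp Pcna (0.69) and the GINS subunits Gins1 (1.07) and Gins2 (0.94). Tyms (0.70), Rfc3 (0.56) and Cdc45 (0.14) were not called.

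Without the muscle arrays 19 of the 24 were called, and leaving out 1 mouse gave 14 to 21, the lowest without replicate 3 at 18 µg. With each array centred on its median in place of loess 7 were called at nearly the same median (0.836), and with only these 2 groups in the fit 6 were. Within the 4 slides the median was 0.555 to 1.1. Of the 19 members with a promoter in the table, Mcm5, Mcm6 and Pola1 (15.8%) held TTTGGCGC, against 0.485% of all genes. Of 21 genes of mitosis 8 were higher and 0 lower (median 0.70), among them the survivin gene Birc5 (1.21, adjusted p = 0.00456), cyclin Ccna2 (1.05) and the proliferation marker Mki67 (1.02, adjusted p = 0.0386). Mki67 had -3.20, -2.90, -2.55 and -2.97 at 162 µg, against -4.00, -3.64 and -4.15 at 18 µg. Replicate 3 at 162 µg, with transcripts of muscle and squamous epithelium, was the highest mouse there. Mki67 lost its call without any 1 mouse except replicate 1 at 162 µg, and stayed called without the muscle arrays. The mitosis count fell to 1 without replicate 3 at 18 µg, and was 3 to 6 without any other single mouse.

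**Figure D2:**
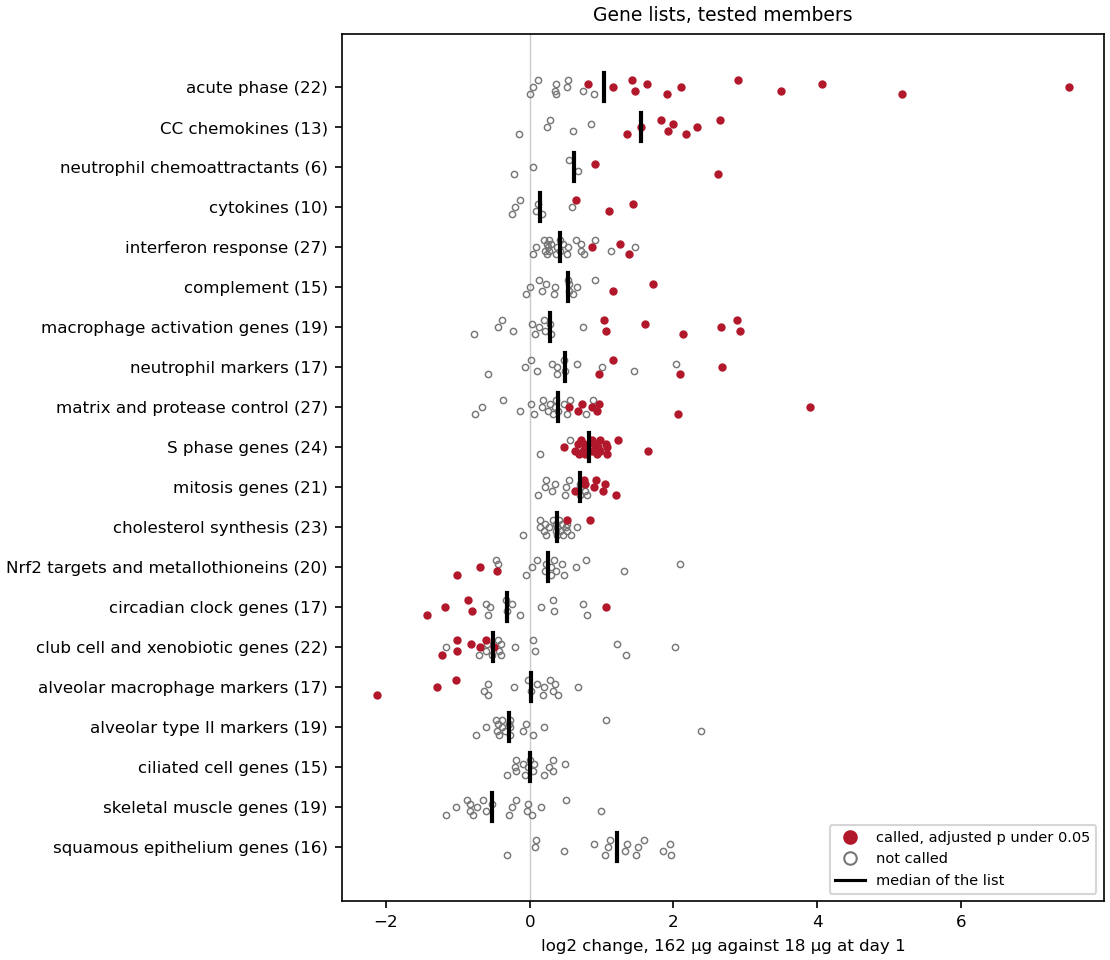
Change between 162 µg and 18 µg at day 1 (x axis, log2) of each tested member of 20 gene lists, with the number tested in brackets. Filled points were called at an adjusted p under 0.05, open points were not, and bars mark the list's median: 21 of 24 S phase genes and 12 of 22 acute phase genes are filled, and all filled points of the club cell list lie below 0.

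Enzymes of club cells and xenobiotic metabolism were the main group to fall. Pon1, a lactonase and esterase, had 3.54, 3.32, 3.08 and 3.24 at 162 µg, against 4.53, 4.32 and 4.72 at 18 µg. The groups did not overlap, and the change was -1.23 ± 0.27 (adjusted p = 0.0141). Gsta3, a glutathione transferase, had 3.15, 3.58, 2.91 and 3.19 at 162 µg, against 4.51, 4.21 and 3.95 at 18 µg (-1.02, adjusted p = 0.0104). Aldh1a1, an aldehyde dehydrogenase that makes retinoic acid, had 4.58, 4.86, 4.14 and 5.02 at 162 µg, against 5.77, 5.67 and 5.53 at 18 µg (-1.01, adjusted p = 0.0295). With the carbonyl reductase Cbr2 (-0.82), Gstm1 (-0.69), the carboxylesterase Ces1d (-0.61) and the monooxygenase Fmo2 (-0.49), 7 of the 22 members tested were lower and 0 higher, and the median was -0.51.

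The defining club cell product Scgb1a1 had 6.51, 5.99, 6.70 and 7.32 at 162 µg, against 6.91, 7.42 and 7.68 at 18 µg, which overlapped. It was not called (-0.70, adjusted p = 0.196), nor was Cyp2f2 (-0.61). With Cy5 alone, quantile normalized, Scgb1a1 showed 0.0012. In that setting probes of the same rank take the same value on each array. For a gene this bright (log2 Cy5 of 18.24 to 18.78) it could show little change. Without the muscle arrays 4 of the 7 were called, and Pon1 (adjusted p = 0.055) and Cbr2 (0.0527) were not. Aldh1a1 lost its call without any 1 mouse except replicates 2 and 4 at 162 µg. The count was 1, 2 and 3 without replicates 3, 1 and 2 at 18 µg, 4 without replicate 1 or 2 at 162 µg, 6 without replicate 3 or 4, and 0 with median centring. Within the 4 slides the median was -0.658 to -0.235. Inmt, an indolethylamine methyltransferase abundant in lung, had 5.08, 4.74, 4.71 and 4.78 at 162 µg, against 6.26, 6.23 and 5.98 at 18 µg (-1.32, adjusted p = 0.00026), and kept its call without each mouse in turn.

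Of 20 targets of the oxidative stress factor Nrf2 and metallothioneins, 0 were higher and 3 were lower, and these were the glutathione transferases Gsta3, Gstm1 and Gstm2 (-0.45). The count of lower genes was 0 without replicate 1 at 18 µg, with median centring or with only these 2 groups in the fit, and 1 without replicate 4 at 162 µg or replicate 2 at 18 µg. At an unadjusted p under 0.05, 5 were higher. Mt2, a zinc-binding metallothionein, had -0.96, -2.05, -0.35 and -1.30 at 162 µg, against -3.31, -3.59 and -2.88 at 18 µg. Those groups did not overlap, and limma's adjusted p was 0.0538. Hmox1, haem oxygenase, had -3.18, -3.06, -2.74 and -0.43 at 162 µg, against -3.66, -3.38 and -3.95 at 18 µg, so 1 mouse stood apart and the gene was not called (1.31, adjusted p = 0.362).

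Markers of the other cell types of the lung were mostly not called. In limma's fit 0 members were called of 19 alveolar type II (median -0.29), 14 alveolar type I (-0.40), 21 endothelial (-0.23), 15 ciliated (-0.0015), 14 T cell (0.10), 15 B and plasma cell (-0.07), 14 NK (-0.08) and 9 eosinophil and mast cell genes (0.06). At an unadjusted p under 0.05, 3 alveolar type II, 4 alveolar type I and 6 endothelial genes were lower, and 1, 1 and 2 were higher, against 4.06% lower and 7.7% higher over all genes tested. The type II product Sftpc had 7.95, 6.76, 7.06 and 8.26 at 162 µg, against 8.19, 8.23 and 8.34 at 18 µg, and was not called (-0.74, adjusted p = 0.196). Of 11 goblet cell genes only Slc26a4 was called, the anion exchanger pendrin of airway epithelium. It had 5.56, 5.30, 4.78 and 6.25 at 162 µg, against 2.49, 1.39 and 3.58 at 18 µg, a change of 2.98 ± 0.60 (adjusted p = 0.00639), and lost its call without replicate 2 at 18 µg (0.0767). The airway mucin Muc5ac had 1.54, 1.5, 0.58 and 4.64 at 162 µg, against 0.72, 0.30 and 0.91 at 18 µg. Replicate 4 at 162 µg stood far above the other mice, the gene was not called (1.42, adjusted p = 0.354), and the list's median was 1.42 with that mouse and 0.394 without it.

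Tissue next to the lung was tested in the same way. Of 19 skeletal muscle, 16 squamous epithelium, 13 cardiac muscle and 8 erythroid genes 0 were called, and 0 passed an unadjusted p under 0.05. Their medians were -0.53, 1.22, 1.18 and -0.23, and without the muscle arrays those of skeletal muscle and squamous epithelium were 0.0032 and 0.0159 and that of cardiac muscle was 1.81. The summed Cy5 intensity of the skeletal muscle list was 813149 in replicate 3 at 162 µg and 5041 to 9948 on the other 162 µg arrays, and 1199289 in replicate 3 at 18 µg and 5153 to 9449 on the other 18 µg arrays. Cardiac muscle summed to 5698 to 102484 at 162 µg and 4289 to 44486 at 18 µg. Of the 72 named genes that were called, 67 stayed called without the muscle arrays and 71 with scores of both tissues as covariates. With only these 2 groups in the fit 29 of the 72 stayed called.

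Single genes that fell include the immediate early transcription factor Fos, with -2.51, -3.43, -2.65 and -3.16 at 162 µg against -1.17, -1.20 and -1.04 at 18 µg. Its change was -1.80 (adjusted p = 0.0184), and Egr1, of the same class of early response genes, changed by -1.64 (adjusted p = 0.019). Both lost their call without replicate 2 or 4 at 162 µg or any 18 µg mouse. Hes2, a transcriptional repressor of the Hes family, had 0.83, 0.72, 0.70 and 0.46 at 162 µg, against 2.25, 2.37 and 1.93 at 18 µg. Its groups were narrow and well apart (-1.51 ± 0.20, adjusted p = 0.0002), and its call held without each mouse. Colq (-1.51), the collagen tail of acetylcholinesterase, and the cystatin Cst8 (-1.34) were called at adjusted p of 0.044 and 0.0261 and lost the call without at least 5 of the 7 mice in turn.

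Clock-controlled genes differed between the doses at day 1. Dbp, an output factor of the clock, had 1.57, 1.90, 1.45 and 1.36 at 162 µg, against 3.31, 2.76 and 2.92 at 18 µg (-1.43, adjusted p = 0.00527). Nr1d1, a repressor within the clock, had 1.21, 1.55, 1.58 and 0.97 at 162 µg, against 2.55, 2.54 and 2.44 at 18 µg (-1.18, adjusted p = 0.000464). In neither gene did a 162 µg mouse reach the lowest 18 µg mouse. Hlf (-0.86) and Tef (-0.81), which belong to the same family as Dbp, were lower too, and their antagonist Nfil3 was higher (1.06, adjusted p = 0.0104), which makes 4 lower and 1 higher of 17 clock genes. Nr1d1 kept its call without each mouse, and Dbp lost it without replicate 1 at 18 µg (0.0501). Nfil3 lost it without replicate 1 or 2 at 18 µg, and the count of lower genes was 1 to 3 without 1 mouse. Of the 14 clock genes with a promoter in the table, Bhlhe41, Per1 and Tef (21.4%) held the E-box, against 6.86% of all genes. Tef was the only called member among them. Dbp averaged 1.57 at 162 µg, 2.99 at 18 µg and 1.57 in the control mice of day 1, so the 18 µg group was the one that stood apart, though 4 of 4 of those control mice had a muscle array. The hour of day at which each mouse was killed is not given in the labels, and its part in these values was not tested.

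The intermediate dose mostly fell between. For 383 of the 391 higher genes (98.0%) and 83 of the 83 lower genes (100%), the mean of the 54 µg mice lay between those of 162 and 18 µg, while this held for 46.1% of all genes tested. The genes were chosen for a difference between the outer doses, which itself favours this order, so the shares are a description. Saa3 averaged -2.27 at 0 µg, -2.72 at 18 µg, 2.34 at 54 µg and 4.78 at 162 µg. Timp1 averaged -2.34, -2.39, -0.09 and 1.51 over the same doses. In both, the step from 18 to 54 µg was larger than that from 54 to 162 µg. Rrm2 averaged -3.58, -3.73, -3.47 and -2.50, so that most of its step lay above 54 µg. The mean at 0 µg was nearer to 18 µg than to 162 µg for 91.3% of the higher and 81.9% of the lower genes, against 53.6% of all genes. Single control mice of day 1 still reached the range of the 162 µg mice in some genes. The control mice had 0.41, 4.15, 0.87 and 1.54 for Orm2, and 2.27, 0.10, 0.43 and 2.96 for Il1r2.

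**Figure D3:**
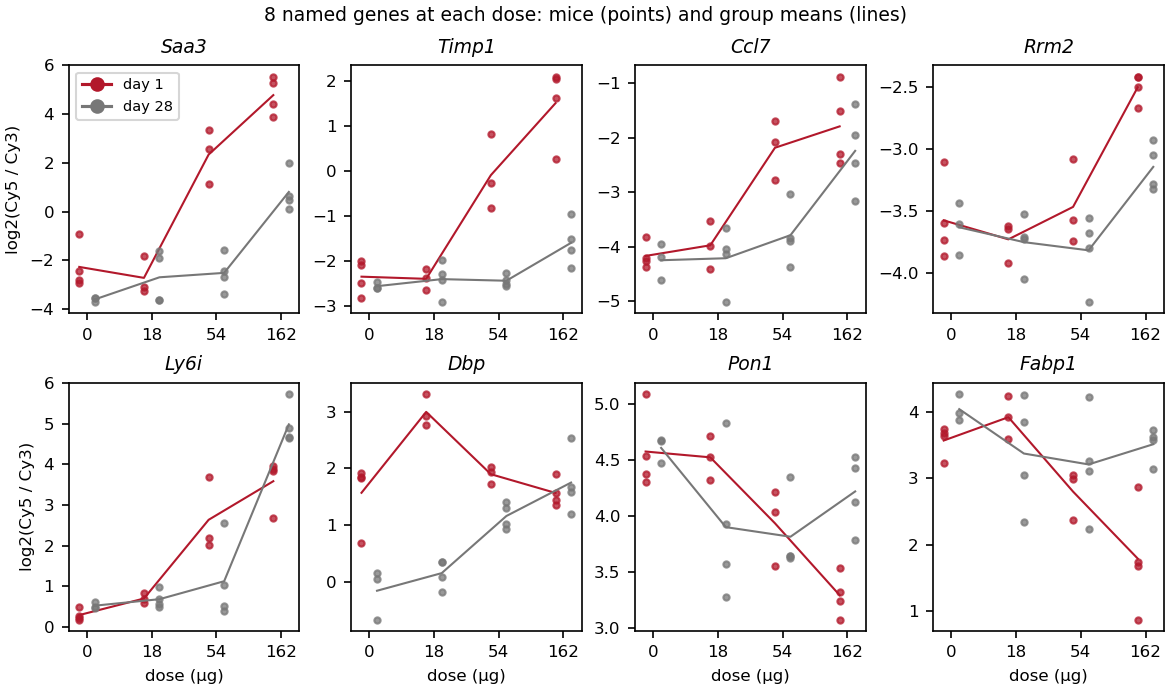
Log2 ratio (y axis) of 8 named genes over 0, 18, 54 and 162 µg, drawn as equal steps on the x axis, at day 1 (red) and day 28 (grey). Points are mice and lines join the group means: at day 1 Saa3 averages -2.72 at 18 µg, 2.34 at 54 µg and 4.78 at 162 µg, and Dbp is highest at 18 µg.

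The same doses were compared at day 28. On that day 1 of the 4 mice at 18 µg had a muscle array, and 0 of the 4 at 162 µg did. The day 28 comparison, and with it the test between the days, was thus not balanced for muscle. The median change at day 28 was -1.80 for skeletal muscle, -2.10 for cardiac muscle and -1.99 for fatty acid and adipocyte genes. There 240 genes were called between 162 µg and 18 µg (1.03%), 236 of them higher (1.01%) and 4 lower (0.0172%), and 43 were called on both days. These are 9.07% of the day 1 genes and 17.9% of the day 28 genes, and 41 of the 43 had the same direction, the exceptions being Dbp and Tef. Without the muscle arrays 288 genes were called at day 28, 254 higher and 34 lower. A test of the difference between the days called 23 genes (0.0989%), 18 with a symbol. With its sign, the change at day 1 was above that at day 28 for 14 of them (0.0602%) and below it for 9 (0.0387%). Saa2 (difference 3.67, adjusted p = 2.14e-06), Saa1 (3.53, adjusted p = 0.00587) and Timp1 (3.09, adjusted p = 0.00681) changed more at day 1. Timp1 averaged -1.59 at 162 µg and -2.39 at 18 µg at day 28, and was not called there. Saa3 changed by 7.51 at day 1, against 3.51 at day 28, and its difference between the days was not called (adjusted p = 0.0586).

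Of the clock genes, 5 of 17 differed between the days. Dbp averaged 1.57 at 162 µg and 2.99 at 18 µg at day 1, against 1.75 and 0.16 at the same doses at day 28, a difference of -3.02 (adjusted p = 0.000447). Nr1d1 (-1.75, adjusted p = 0.00184), Tef (-1.68, adjusted p = 0.0141) and Nr1d2 (-1.55, adjusted p = 0.0314) differed the same way and Arntl, which drives them in the clock's loop, the opposite way (1.58, adjusted p = 0.0219). Of the S phase genes 0 were called at day 28, with a median change of 0.15 and 5 of 24 higher at an unadjusted p under 0.05. In the test between the days only Mcm2 of that list was called (0.99, adjusted p = 0.0314), with 20 of 24 larger at day 1 at an unadjusted p under 0.05, against 4.21% of all genes. Interferon-responsive genes ran the other way, with 23 of 27 called higher at day 28 and a median of 1.36. For them 0 of 27 passed limma's adjusted threshold in the test between the days, and 19 had a smaller change at day 1 at an unadjusted p under 0.05, against 5.61% of all genes. Ly6i, which changed by 2.88 at day 1 and 4.30 at day 28, Cxcl10 (2.15 at day 1 and 2.14 at day 28) and Ccl7 (2.18 at day 1 and 1.97 at day 28) were called on both days. Fabp1 had a change of 0.14 at day 28 and Pon1 of 0.32, and neither was called there.

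**Figure D4:**
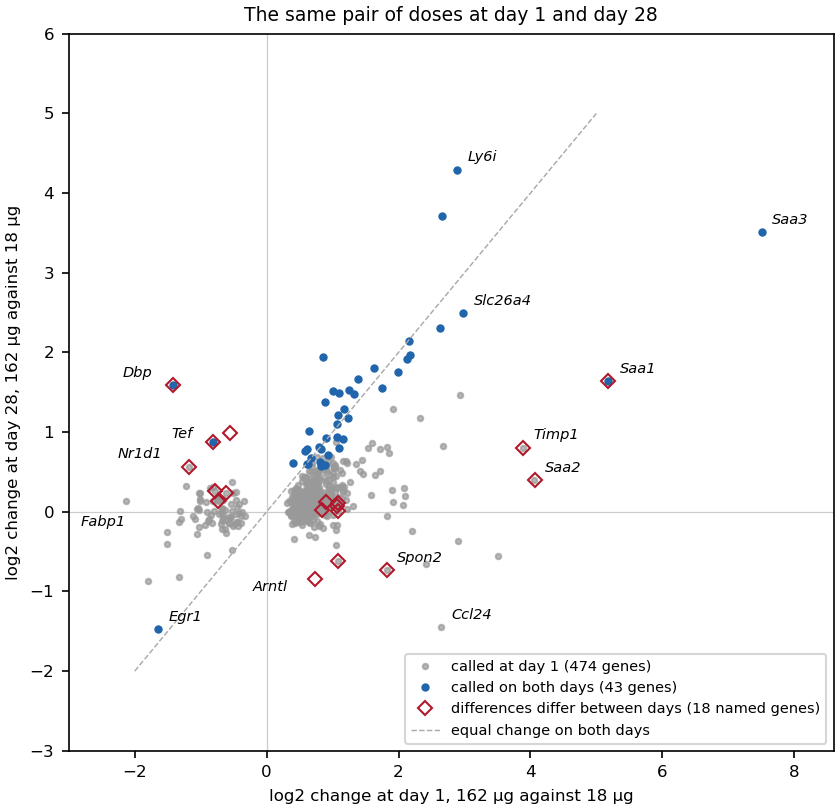
Change between 162 µg and 18 µg at day 28 (y axis, log2) against that at day 1 (x axis, log2) for the 474 genes called at day 1 and for the named genes that differed between the days. Blue points were called on both days (43 genes), diamonds differed between the days and the dashed line marks equal change: Saa3 lies at 7.51 and 3.51, and Dbp at -1.43 and 1.59.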

How the data were processed

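Per the file headers, Agilent Feature Extraction 11.0.1.1 read the spots of the 2-colour arrays, and the deposited files give foreground and background intensity in both dyes. The deposited LogRatio column is that software's log10 of Cy5 over Cy3. The authors' deposited value table has log2 ratios whose medians were -0.039 to -0.017 per array, at r = 0.986 to 0.997 across probes with the ratios used here, and its normalization is not given in the sources used here. The scanner's flags, a deposited score of 0 or 1 per spot, gave outliers and signals above background. No spot was saturated (0 of those used).

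From the intensities, R 4.3.3, limma 3.58.1 and the package data.table (1.17.8) computed log2(Cy5/Cy3) after normexp (offset 50) and loess within arrays. The plan named mean signals, but the files give medians. Probes (55681) were named through RefSeq accessions and a GRCm38.p6 table, 28026 of them with 21154 symbols, and the brightest probe was kept per gene name. For 99 called genes 109 further probes exist, of which 4 pointed the opposite way. The size also depended on the probe. A further probe gave a smaller change for Vcan (0.49 against 1.21), Birc5 (0.57 against 1.21), Zbp1 (0.59 against 1.25) and Colq (-0.36 against -1.51). It was larger for Chaf1b (1.21 against 1.07) and Cbr2 (-1.17 against -0.82). A gene was tested when its Cy5 signal was well above background in at least 3 mice of a group, on each of their arrays, which left 23255 genes, 15198 with a symbol. The files hold no read depth, and the median raw Cy5 intensity of 103 to 143 per array and the number of mice limit the precision.

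Arrays of a mouse were averaged, and 1 limma model with 8 group means (21 residual and 2.9 prior degrees of freedom) gave the 3 contrasts: 162 µg against 18 µg at day 1, the same at day 28, and the difference between them, each two-sided with Benjamini-Hochberg adjustment. The arrays lay on 5 slides in 3 scan sessions. In data simulated for the day 1 comparison over 23255 genes, 84% of 50 genes changed 2-fold and 62% of 50 changed 1.5-fold were recovered, with 5 false calls among 174. The comparison, the 39 gene lists and the alternatives were chosen with earlier results of these data known. Named genes were, among called genes with a symbol, the 15 largest rises and 10 largest falls without overlap between the groups, up to 5 each way with 1 group below background, at most 4 called members per list, and a fixed set of genes of inflammation, proliferation and lung. Other genes are given as members of their list, and some single genes are not reported here.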

Additional observations from a re-analysis of the deposited data

Results flagged for a closer look

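In 6 of the 83 named genes 1 mouse of the 162 µg group at day 1 stood apart from the other 3 by its gap to the nearest. The rule flags about 1 in 20 groups by chance, so the count is close to that share. Replicate 3, whose array carried muscle transcripts, was the low mouse in 5 of them. It had 2.69 for Ly6i, against 3.84 to 3.95 in the others, and -1.22 for Cxcl5, against -0.51 to -0.47. It had 0.0372 for Lgals3, against 0.50 to 0.58, -1.72 for Mcm5, against -1.37 to -1.30, and 0.96 for Cebpb, against 1.24 to 1.28. The part of the muscle RNA in these values was not tested beyond the fits without the muscle arrays, where all 5 genes stayed called. Replicate 4 had -0.43 for Hmox1, against -3.18 to -2.74.

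The difference between 162 µg and 18 µg itself differed between the days for 18 genes with a symbol, by limma's test of that difference. Values in brackets are the signed change at day 1 minus that at day 28. They were positive for Saa2 (3.67), Saa1 (3.53), Timp1 (3.09), the matrix protein gene Spon2 (2.56) and the small nucleolar RNA Rnu3b1 (1.70). The same held for Arntl (1.58), Ccdc167 (1.08), Mcm2 (0.99), the kinase Pask (0.81) and BC055324 (0.77). They were negative for Dbp (-3.02), Nr1d1 (-1.75), Tef (-1.68) and Nr1d2 (-1.55). The epoxide hydrolase Ephx1 (-1.04), the natriuretic peptide receptor Npr2 (-0.88) and Ces1d (-0.85) also had negative values. The sign does not give the size of a change. Arntl changed by 0.74 at day 1 and -0.84 at day 28. Ephx1 changed by -0.78 and 0.26, Npr2 by -0.74 and 0.14 and Ces1d by -0.61 and 0.24 on the same days. The calls of Saa1, Saa2, Timp1, Dbp, Nr1d1, Spon2, Ccdc167 and Npr2 held without each mouse in turn. Without the muscle arrays the call of Npr2 was lost, as were those of Nr1d2, Ces1d, Pask and BC055324.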

How the results depend on the processing

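The counts of called genes were 474 at day 1, 240 at day 28 and 23 between the days. In that order they were 99, 71 and 3 when the fit held only the 2 or 4 groups being compared. They were 894, 424 and 90 with the slide as a block. With median centring they were 113, 157 and 8, and 96.5% of the day 1 calls were then higher at 162 µg, against 82.5%. That centring moved the median over all genes by 0.152 at day 28 and by -0.164 between the days. With the mouse of conflicting labels moved to day 1 they were 205, 158 and 4, and 12 between the days without it. The day 1 count was 248 with only the mice of that day, 728 with muscle and squamous scores as covariates, 852 with every array in the fit and 3168 with array quality weights, which gave 59.4% higher. The day 28 count was 75 with the first array of each mouse and 156 with the deposited LogRatio. The count between the days was 42 without muscle arrays, 102 with both scores, 134 with every array, 561 with weights, 11 with the LogRatio, 14 with the deposited value table and 7 with Cy5 alone. Fits chosen after seeing the data gave 250 at day 1 with only the groups compared and no muscle arrays, and 784 at day 1 and 74 between the days with the muscle score alone. Without 1 mouse the counts were 187 to 584, 138 to 309 and 8 to 81. The cause of these shifts was not tested. Of the 72 named genes called, 17 kept the call under all alternatives run and 34 without each mouse in turn. With Cy5 alone, which was quantile normalized, Scgb1a1 (0.0012) and Sftpc (0.0024) showed almost no change, and neither was called. Both are very bright (log2 Cy5 of 18.24 to 18.78 and 18.13 to 18.56), so that setting could show little change for them. No paired analysis was possible because the labels give no replicate numbers shared between groups, and the slide was fitted as a block as given above. The number of mice and the signal over background limit what could be called.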

Other observations

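Lists not described above held few called genes. Of 23 genes of cholesterol synthesis and uptake 22 had a positive change at day 1, with a median of 0.37 and within-slide medians of 0.314 to 0.564, but only the sterol reductase Tm7sf2 (0.85, adjusted p = 0.0083) and the isomerase Ebp (0.52, adjusted p = 0.026) were called. Tm7sf2 had 1.21, 1.58, 1.18 and 1.1 at 162 µg, against 0.68, 0.11 and 0.47 at 18 µg, and lost its call without replicate 2 at 18 µg (0.0955). Ebp lost its call without replicate 2 or 4 at 162 µg or any 1 of the 18 µg mice. Of 23 lysosome genes 0 were called by limma at day 1 (median 0.05, with 3 higher and 0 lower at an unadjusted p under 0.05), and 5 were called higher at day 28. Of 13 glucocorticoid responsive genes only Lcn2 was called.

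The fat tissue list had a median of 0.0037 at day 1 and 0 of its 16 members were called or had an unadjusted p under 0.05. Its summed Cy5 intensity was 43890 to 341535 on the 162 µg arrays and 26874 to 254576 on the 18 µg arrays, and the highest value of each group was that of replicate 3. The 2 arrays of replicate 1 at 162 µg differed as well, with 44517 on one and 106546 on the other. Of 9 smooth muscle genes 0 were called (median 0.61), with 3 higher at an unadjusted p under 0.05.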
